A study of Mus musculus with 34 samples.

Results

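The interferon regulatory factors are a family of transcription factors, and the 8 genes described here (Irf1, Irf2, Irf3, Irf4, Irf5, Irf7, Irf8 and Irf9) were matched by symbol among 54532 gene IDs in the deposited count tables. Each symbol matched 1 ID. All 8 had counts in each of the 30 libraries, between 15 (Irf4) and 47975 (Irf7), and all 8 passed the filter on low counts in every comparison.

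Messenger RNA from mouse blood was sequenced in mice labelled wild type, in 4 treatment groups. These were 7 mice given ALY688 together with lipopolysaccharide (ALY688+LPS), 4 mice given lipopolysaccharide (LPS), 10 mice given ALY688 and 9 mice given phosphate-buffered saline (PBS). ALY688 is an agonist of the adiponectin receptors, and LPS is a cell wall component of Gram-negative bacteria that is sensed by Toll-like receptor 4. Of 34 labelled mice, 30 had counts; 3 further mice labelled LPS and 1 labelled PBS were not analysed here. No vehicle is named for LPS, and neither doses, times after injection, sex, age nor strain could be read from the labels. The series text treats the search for ALY688 markers and the LPS model as separate experiments, so the effect of LPS and the experiment cannot be told apart in comparisons across LPS. A replicate is 1 numbered mouse. The numbers recur between groups, and the groups were treated as separate mice.

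Interferon regulatory factors bind DNA through a conserved domain at their amino-terminal end that reads the interferon-stimulated response element (ISRE), a repeat of GAAA. IRF3, IRF5 and IRF7 lie downstream of pathogen sensors, are phosphorylated by kinases such as TBK1, and switch on interferon and cytokine genes. IRF9 is the DNA-binding subunit of the complex that carries the type I interferon signal to the nucleus, where Irf7 is itself a target gene. IRF1 activates and IRF2 mostly represses a shared set of targets. IRF4 and IRF8 need partners such as PU.1 or BATF to bind most of their sites, and direct the development of B cells, plasma cells, monocytes and dendritic cells.

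The start regions of the members that passed the test in both comparisons across LPS (Irf7, Irf9, Irf1 and Irf4, with values further on) are printed with that of Irf2, which passed in none and holds the only ISRE core found. They are the 250 bases before the transcription start in the RefSeq table (GRCm38.p6), 5′ to 3′ on the gene's strand, with motif matches in capitals. Irf9 and Irf1 have 2 windows each in that table, of which the first is shown. The printed stretch of Irf9 lies inside the GENCODE gene given further on, which starts upstream of the RefSeq start, and those of Irf7, Irf4 and Irf2 overlap theirs in part:
Irf7, chr7:141266425-141266674, minus strand: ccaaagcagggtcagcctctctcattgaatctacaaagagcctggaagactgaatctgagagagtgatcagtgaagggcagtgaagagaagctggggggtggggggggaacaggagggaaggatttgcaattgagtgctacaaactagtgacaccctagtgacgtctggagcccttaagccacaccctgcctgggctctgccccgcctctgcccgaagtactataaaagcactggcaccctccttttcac
Irf9, chr14:55603735-55603984, plus strand: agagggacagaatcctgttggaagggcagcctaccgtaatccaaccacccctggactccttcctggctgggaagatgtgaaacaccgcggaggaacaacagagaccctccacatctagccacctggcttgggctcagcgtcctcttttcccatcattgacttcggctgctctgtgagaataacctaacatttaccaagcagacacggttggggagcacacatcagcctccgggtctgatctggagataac
Irf1, chr11:53769764-53770013, plus strand: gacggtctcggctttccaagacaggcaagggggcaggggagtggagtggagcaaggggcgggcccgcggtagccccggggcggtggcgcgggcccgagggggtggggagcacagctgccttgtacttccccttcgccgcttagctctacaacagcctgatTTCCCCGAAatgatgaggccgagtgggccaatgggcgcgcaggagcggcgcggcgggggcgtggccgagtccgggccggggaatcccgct
Irf4, chr13:30748983-30749232, plus strand: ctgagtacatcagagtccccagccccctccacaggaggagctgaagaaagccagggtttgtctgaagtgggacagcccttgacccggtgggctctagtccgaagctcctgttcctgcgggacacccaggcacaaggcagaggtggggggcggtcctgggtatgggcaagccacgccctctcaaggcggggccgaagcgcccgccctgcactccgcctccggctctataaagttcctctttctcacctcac
Irf2, chr8:46739495-46739744, plus strand: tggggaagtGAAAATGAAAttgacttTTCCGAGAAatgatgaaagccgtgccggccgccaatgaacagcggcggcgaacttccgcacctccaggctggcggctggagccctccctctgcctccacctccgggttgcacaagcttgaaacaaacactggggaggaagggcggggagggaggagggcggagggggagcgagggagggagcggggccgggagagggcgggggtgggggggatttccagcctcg

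The motifs searched, on both strands over 300 bases (250 before to 50 after the start), were the ISRE core GAAANNGAAA, the same repeat with a spacer of 3 bases (GAAANNNGAAA), and the STAT dimer site TTCNNNGAA, known as GAS. Of the 32851 promoter windows in the table, 3.44% held the ISRE core, 2.75% the repeat with the longer spacer and 8.3% the GAS letters. The 8 members had 11 windows. Irf2 held the ISRE core at −241 to −232 and a GAS match at −224 to −216. Irf1 held a GAS match at −90 to −82, in the window printed. Irf8 held a pair, at −171 to −163 and −153 to −145, in the first of its windows. The other windows held none of these letters, those of Irf7 and Irf9 included, which says only that they are absent from these windows.

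The genes lie at chr7:141262706-141266481 (Irf7, minus strand), chr14:55603571-55610030 (Irf9), chr11:53770014-53778374 (Irf1), chr8:46739732-46847458 (Irf2), chr7:44997648-45002848 (Irf3), chr6:29526625-29541871 (Irf5), chr13:30749226-30766976 (Irf4) and chr8:120736358-120756694 (Irf8), in GENCODE M21 on GRCm38. How strand was treated in counting is not given in the sources used here, so reads of overlapping genes may be shared. Exons of Irf5 overlap those of Tnpo3 on the other strand over 411 bases, 14.1% of the exon length of Irf5. The exon overlaps of the other members, such as Irf9 with Rnf31 on the same strand over 123 bases, covered at most 3.4% of theirs.

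Each library held between 9554964 and 17338214 counts. Globin transcripts took 40.5% ± 10.96 of the counts in ALY688+LPS mice, 30.4% ± 10.4 in LPS mice, 49.2% ± 6.51 in ALY688 mice and 56.3% ± 6.22 in PBS mice (SD, n = 7, 4, 10 and 9). In 6 libraries fewer than 16000 genes had a count: mice 6 and 8 of the ALY688+LPS group, mouse 7 of the ALY688 group, and mice 5, 6 and 9 of the PBS group. The limit of 16000 is a chosen cut without a clear gap, as the nearest libraries on either side held 15830 and 16263 genes. It removes no LPS library, the lowest of which held 16532. Results that rest on the few-gene libraries are given with and without them. Levels are given as CPM, the count relative to a library total that TMM scaling has adjusted so that the bulk of genes is equal between libraries. In bulk blood, fewer cells of a type and less RNA per cell cannot be told apart.

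**Figure D1:**
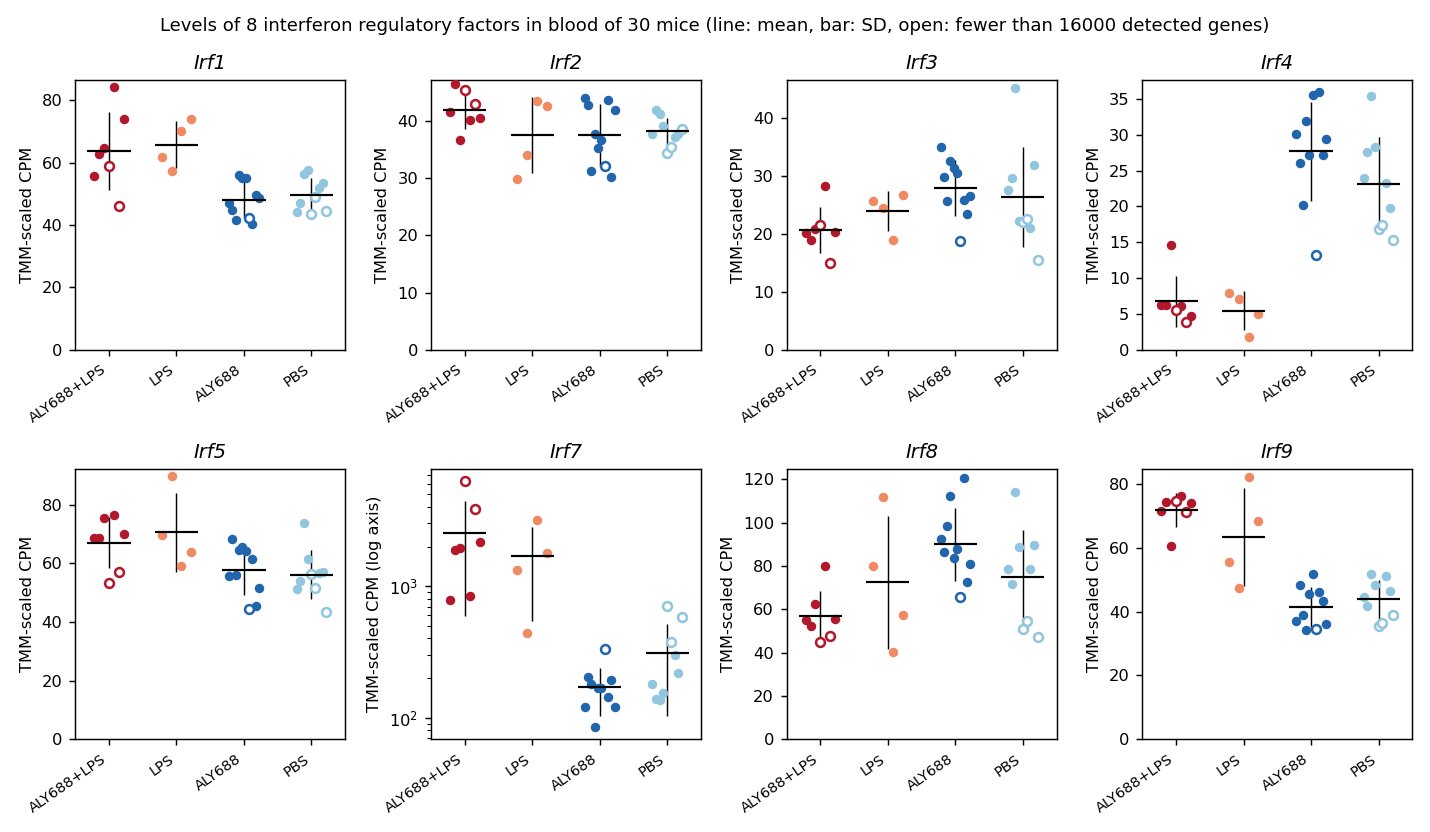
TMM-scaled CPM of the 8 members in each mouse, by group (horizontal line, mean; vertical bar, SD; open points, libraries with fewer than 16000 detected genes; the Irf7 axis is logarithmic). Irf7 stands between 438 and 6276 CPM in the mice given LPS with or without ALY688, against 85.0 to 706 in the mice without LPS, and Irf4 is the member with the clearest drop.

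Per kilobase of exon, Irf7 had the highest mean level of the 8 in every group. In PBS mice it stood at 82.1 ± 55.03 CPM per kb (SD, n = 9), above Irf5 at 19.3 ± 2.84, and the ranges of these genes did not overlap. Below Irf5 came Irf1 (12.5 ± 1.36), Irf8 (10.6 ± 3.06), Irf9 (8.15 ± 1.14), Irf3 (7.66 ± 2.49), Irf2 (5.16 ± 0.325) and Irf4 (4.71 ± 1.34). Each of these overlapped its neighbour among them. Irf1, at up to 14.5, did not overlap Irf5, which started at 15.0, while Irf8, at up to 16.2, did. In ALY688 mice every neighbouring pair overlapped, and Irf2 rather than Irf4 was lowest (5.07 ± 0.721, n = 10). In both LPS groups Irf7 stood apart from Irf5, and Irf4 stood apart below Irf2, at 1.38 ± 0.729 CPM per kb in ALY688+LPS mice (n = 7) and 1.12 ± 0.556 in LPS mice (n = 4).

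Irf7 therefore made up most of the family's summed level per kb where LPS was given. Its share was 85.5% ± 9.27 in ALY688+LPS mice, 79.8% ± 14.9 in LPS mice, 38.0% ± 10.7 in ALY688 mice and 50.1% ± 17.6 in PBS mice. Among the other 7 members alone, Irf5 held the largest part in every group, 31.4% ± 2.17, 31.8% ± 3.95, 27.8% ± 1.79 and 28.5% ± 1.98 in the same order of groups. Irf9 held 18.3% ± 2.34 of that sum in ALY688+LPS mice and 15.7% ± 4.67 in LPS mice, against 10.9% ± 1.46 in ALY688 mice and 12.04% ± 1.09 in PBS mice. Irf4 held 1.86% ± 0.926 and 1.45% ± 0.704 in the groups with LPS, against 7.83% ± 1.44 in ALY688 mice and 6.83% ± 1.04 in PBS mice. These shares are a description, without a test.

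The response to LPS can be read in mice without ALY688 (LPS against PBS) and in mice with it (ALY688+LPS against ALY688), comparisons that share no library. In LPS against PBS, 4 of 8 members passed an adjusted p of 0.05 in edgeR's quasi-likelihood test with Benjamini-Hochberg adjustment over all genes, 3 higher (Irf7, Irf9, Irf1) and 1 lower (Irf4). Of all 12353 genes tested, 38.7% passed, 20.9% higher and 17.9% lower. In ALY688+LPS against ALY688, 6 of 8 passed, the same 4 in the same directions with Irf8 and Irf3 lower; of all 12266 genes, 53% passed, 26.4% higher and 26.6% lower. Against these shares, the counts of 4 and 6 among 8 are not read as particular to the family. The counts of cell type markers further on stand beside the same shares. The median log2 fold change of the members was 0.15 in LPS against PBS and 0.19 in ALY688+LPS against ALY688, beside −0.04 and −0.05 over all genes. With library totals in place of TMM, the median over all genes in LPS against PBS was 1.04, and member values there moved with it.

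**Figure D2:**
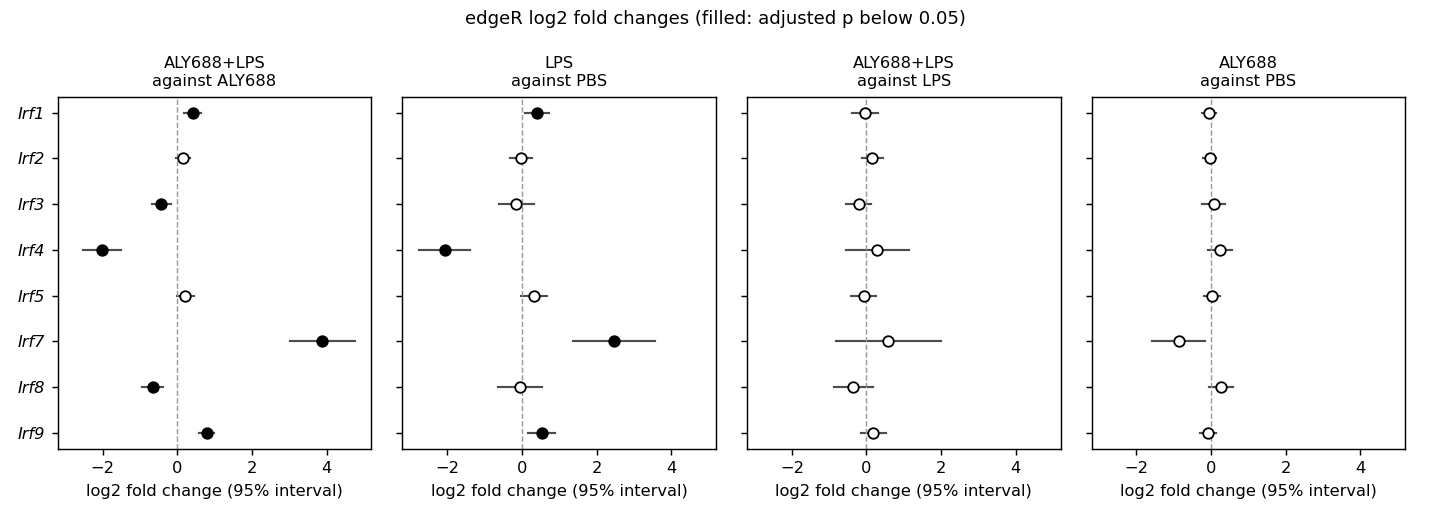
Log2 fold changes of the 8 members in 4 comparisons, with 95% intervals; filled points passed an adjusted p of 0.05 in edgeR. Irf7 lies far to the right and Irf4 to the left in both comparisons across LPS, at 3.88 and 2.46 and at −2.01 and −2.06, and no point is filled in either comparison for ALY688.

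Irf7, the inducible factor that amplifies type I interferon production, rose the most of the 8 in both comparisons. It stood at 791 to 6276 CPM with a median of 1938 in ALY688+LPS mice, and at 438, 1334, 1795 and 3171 CPM in LPS mice 6, 2, 8 and 7. The mice without LPS held 85.0 to 334 CPM with a median of 168 in the ALY688 group, and 136 to 706 CPM with a median of 219 in the PBS group. Every ALY688+LPS mouse thus lay above every ALY688 mouse, as 12.6% of all tested genes did, while LPS mouse 6 lay below PBS mice 5 and 9. The log2 fold change was 3.88 ± 0.41 (SE; edgeR adjusted p = 1.99e-07; 14.8-fold) in ALY688+LPS against ALY688 and 2.46 ± 0.52 (edgeR adjusted p = 0.00149; 5.50-fold) in LPS against PBS. With the globin percentage as a covariate, the value in LPS against PBS was 5.198 (edgeR adjusted p = 1.56e-05). The globin share was 18.4% to 43.7% in LPS mice and 45.1% to 64.3% in PBS mice, without overlap. Covariate values in LPS against PBS, here and for the other members, are therefore extrapolated, and globin and treatment cannot be separated there.

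Irf7 was highest in the few-gene libraries of each group that held any. In PBS mice the 3 few-gene libraries held 375 to 706 CPM and the other 6 held 136 to 300.2. In ALY688+LPS mice the few-gene libraries of mice 6 and 8 held 6276 and 3841 CPM and the other 5 held 791 to 2159. With the few-gene libraries left out, the log2 fold change was 3.35 (adjusted p = 7.96e-09) in ALY688+LPS against ALY688 and 3.12 (adjusted p = 0.000155) in LPS against PBS. Scaled by library totals only, Irf7 lay at 1372 to 3945 CPM in ALY688+LPS mice, 1100 to 3020 in LPS mice, 110 to 238 in ALY688 mice and 138 to 245 in PBS mice, and the groups with LPS no longer overlapped those without. The share of all genes that separate in this way was not taken. Under this scaling the median log2 fold change over all genes was 1.04 in LPS against PBS and 0.03 in ALY688+LPS against ALY688. In TMM-scaled log2 CPM with group means subtracted, Irf7 correlated with the number of detected genes at r = −0.85 (Pearson, 30 libraries). Other members went the opposite way: Irf4 (0.78), Irf8 (0.76), Irf3 (0.70), Irf5 (0.66) and Irf1 (0.45), with Irf9 at 0.14 and Irf2 at 0.04. In PBS mice the few-gene libraries held 15.3 to 17.4 CPM of Irf4 and 47.3 to 54.7 of Irf8. The other PBS mice held 19.75 to 35.4 and 71.6 to 114.

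**Figure D3:**
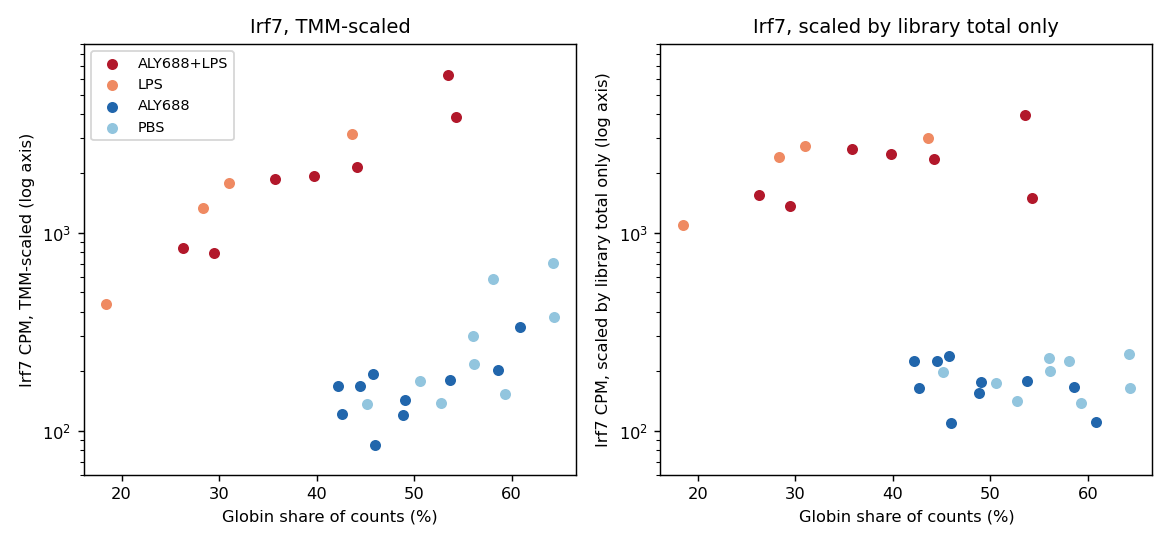
Irf7 in each mouse against the globin share of its counts (%), with TMM scaling (left) and with scaling by the library total only (right), both on a logarithmic axis. On the left Irf7 is higher in globin-rich libraries within each group. On the right the 11 mice given LPS lie at 1100 CPM or more and the 19 others at 245 or less. The scaling on the right also moves the median log2 fold change over all genes in LPS against PBS to 1.04.

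Levels of Irf7 were also set against marker transcripts of the same library, which needs no scaling. Per 1000 counts of 7 erythroid markers (globin genes, Alas2 and Slc4a1 among them), Irf7 had 2.55 to 6.92 counts in ALY688+LPS mice and 5.78 to 8.38 in LPS mice, against 0.171 to 0.504 in ALY688 mice and 0.224 to 0.415 in PBS mice. Per 1000 counts of 8 neutrophil markers it had 70.5 to 480.0 in ALY688+LPS mice and 108 to 228 in LPS mice, against 78.5 to 271 in ALY688 mice and 146 to 687 in PBS mice. The first ratio separated mice with and without LPS, and the neutrophil ratio did not. The share of all genes that separate per erythroid count was not taken. The erythroid markers themselves had a median log2 fold change of −1.74 in LPS against PBS, and of 0.07 in ALY688+LPS against ALY688. All 8 neutrophil markers rose in both comparisons across LPS, with a median log2 fold change of 3.80 with ALY688 and 3.13 without it. Their summed level was 5521 to 13080 CPM in ALY688+LPS mice and 4064 to 13920 in LPS mice, against 525.9 to 1428 in ALY688 mice and 577 to 2185 in PBS mice. Their part in the result for Irf7 was not tested.

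Irf9, the DNA-binding subunit of the type I interferon complex, rose by a smaller step. It stood at 60.6 to 76.3 CPM with a median of 74.1 in ALY688+LPS mice and at 47.4, 55.7, 68.4 and 82.4 CPM in LPS mice 6, 2, 8 and 7. ALY688 mice held 34.2 to 52.02 CPM (median 41.2) and PBS mice 35.6 to 51.7 (median 44.6). Every ALY688+LPS mouse lay above every ALY688 mouse, as 12.6% of all tested genes did. Of the LPS mice only mouse 6 lay within the PBS range. The log2 fold change was 0.79 ± 0.10 (edgeR adjusted p = 1.27e-06) in ALY688+LPS against ALY688. It was 0.53 ± 0.17 (edgeR adjusted p = 0.0236) in LPS against PBS, a call that ended without LPS mouse 7 (0.41, adjusted p = 0.0738), without LPS mouse 8 (0.51, adjusted p = 0.0655) or without the few-gene libraries (0.39, adjusted p = 0.0536).

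Irf1, an activator induced by interferon-gamma, stood at 46.0 to 84.4 CPM with a median of 62.7 in ALY688+LPS mice and at 57.4, 61.8, 70.2 and 74.0 CPM in LPS mice 6, 2, 7 and 8. ALY688 mice held 40.3 to 56.2 CPM (median 47.9) and PBS mice 43.4 to 57.7 (median 49.1). LPS mouse 6 was just below the highest PBS mouse, and ALY688+LPS mice 1 and 8 lay within the ALY688 range. The log2 fold change was 0.41 ± 0.11 (edgeR adjusted p = 0.00437) in ALY688+LPS against ALY688, and 0.54 (adjusted p = 0.27) with library totals in place of TMM. It was 0.40 ± 0.15 (edgeR adjusted p = 0.0385) in LPS against PBS, and 8 of 13 fits that left out 1 library ended that call, without PBS mouse 1, 2, 5, 6 or 7 or without LPS mouse 2, 7 or 8 (adjusted p up to 0.119). Irf2, its counterpart that mostly represses the same sites, did not pass in any comparison with TMM scaling, and passed in LPS against PBS with library totals (0.98, adjusted p = 0.045). Its levels were 36.6 to 46.3 CPM in ALY688+LPS mice, 29.9, 34, 42.6 and 43.5 in LPS mice, 30.1 to 43.9 in ALY688 mice and 34.4 to 41.9 in PBS mice. Its 95% intervals ran from −0.04 to 0.36 in ALY688+LPS against ALY688 and from −0.32 to 0.27 in LPS against PBS on the log2 scale.

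Irf3 is held ready in the cytoplasm and activated by phosphorylation, and Irf5 acts below Toll-like receptors in myeloid and B cells. By edgeR log2 fold change with TMM, both differed less across LPS than Irf7, Irf9 and Irf4. Irf3 stood at 15.0 to 28.2 CPM with a median of 20.3 in ALY688+LPS mice, at 18.9, 24.4, 25.7 and 26.7 CPM in LPS mice, at 18.8 to 35 (median 28.1) in ALY688 mice and at 15.5 to 45.0 (median 22.5) in PBS mice. It fell by 0.43 ± 0.12 on the log2 scale in ALY688+LPS against ALY688 (edgeR adjusted p = 0.00652), with overlapping groups, a call that ended with library totals in place of TMM (−0.31, adjusted p = 0.598). In LPS against PBS it was at −0.15 ± 0.22 (edgeR adjusted p = 0.627), at −0.98 (adjusted p = 0.0456) with the globin covariate and at 0.83 with library totals. Irf5 stood at 53.4 to 76.5 CPM (median 68.7) in ALY688+LPS mice, at 59.3, 63.7, 69.8 and 89.9 in LPS mice, at 44.5 to 68.2 (median 58.7) in ALY688 mice and at 43.6 to 73.7 (median 56.4) in PBS mice. Its log2 fold changes, 0.22 ± 0.11 with ALY688 and 0.33 ± 0.17 without it, missed the threshold (edgeR adjusted p = 0.0903 and 0.13). In ALY688+LPS against ALY688, Irf5 passed without ALY688+LPS mouse 8 (0.28, adjusted p = 0.0434) and without the few-gene libraries (0.34, adjusted p = 0.00927). In LPS against PBS it passed in DESeq2 (0.31, adjusted p = 0.0421) and with library totals (1.43, adjusted p = 0.0118).

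Irf4, the lymphoid member needed for B cell activation and plasma cells, fell the most of the 8. It stood at 3.81 to 14.6 CPM with a median of 6.11 in ALY688+LPS mice and at 1.83, 5.04, 7.04 and 7.99 CPM in LPS mice 7, 8, 6 and 2. ALY688 mice held 13.3 to 35.95 CPM (median 28.3) and PBS mice 15.3 to 35.4 (median 23.2). All 4 LPS mice lay below all 9 PBS mice, as 5.92% of all tested genes did, while ALY688+LPS mouse 4, at 14.6 CPM, lay above ALY688 mouse 7, at 13.3. The log2 fold change was −2.01 ± 0.24 (edgeR adjusted p = 1.16e-06) in ALY688+LPS against ALY688 and −2.06 ± 0.32 (edgeR adjusted p = 0.000112) in LPS against PBS, about 4.03-fold and 4.18-fold lower. With library totals in place of TMM, the call in LPS against PBS ended (−0.97, adjusted p = 0.192), and the groups overlapped, at 1.74 to 17.7 CPM in LPS mice and 5.86 to 51.4 in PBS mice. With the globin covariate the value there was −3.67 (adjusted p = 1.32e-05). Without the few-gene libraries, Irf4 was at −1.90 in ALY688+LPS against ALY688 and at −2.24 in LPS against PBS (edgeR adjusted p = 2.74e-06 and 0.000101).

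B cell transcripts fell beside Irf4. All 8 B cell markers, among them Cd79a, Ms4a1 and Pax5, fell in both comparisons, with a median log2 fold change of −2.43 in ALY688+LPS against ALY688 and −2.67 in LPS against PBS. Their summed level was 109 to 599 CPM in ALY688+LPS mice and 89.9 to 237 in LPS mice, against 749 to 1589 in ALY688 mice and 557 to 1814 in PBS mice. Mouse 4 of the ALY688+LPS group, which had the highest Irf4 level of the mice given LPS, also had the highest B cell sum of them. Per 1000 counts of B cell markers, Irf4 had a median of 35.1 counts in ALY688+LPS mice and 33.5 in LPS mice, against 20.8 in ALY688 mice and 21.4 in PBS mice, and the ranges overlapped. All 10 T cell markers fell as well, with medians of −1.79 with ALY688 and −2.32 without it. The part of these cell types in the result for Irf4 was not tested.

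**Figure D4:**
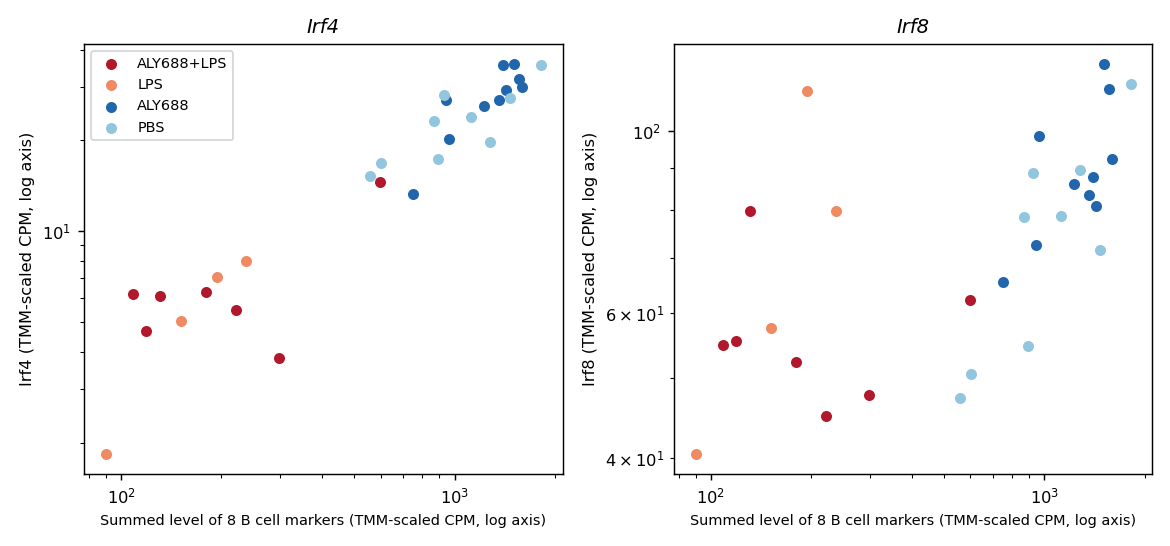
Irf4 (left) and Irf8 (right) in each mouse against the summed level of 8 B cell markers, all in TMM-scaled CPM on logarithmic axes. Irf4 and the B cell sum are low together in the mice given LPS, while Irf8 in the same mice, at 40.4 to 112 CPM, spans much of the range of the mice without LPS, at 47.3 to 121 CPM.

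Irf8, the factor of monocyte, dendritic cell and B cell development, stood at 45.0 to 79.8 CPM with a median of 54.9 in ALY688+LPS mice and at 40.4, 57.5, 79.8 and 111.8 CPM in LPS mice 7, 8, 2 and 6. ALY688 mice held 65.4 to 121 CPM (median 87.0) and PBS mice 47.3 to 114 (median 78.6). The LPS mice spanned nearly the whole PBS range. The low end of that range, 47.3 to 54.7 CPM, came from the few-gene libraries, and the other PBS mice held 71.6 to 114. Irf8 fell by 0.66 ± 0.14 on the log2 scale in ALY688+LPS against ALY688 (edgeR adjusted p = 0.000403), with overlapping groups, and this call also ended with library totals in place of TMM (−0.51, adjusted p = 0.317). In LPS against PBS it was at −0.06 ± 0.28 (edgeR adjusted p = 0.89), with a 95% interval from −0.64 to 0.53. The globin covariate gave −1.51 there (adjusted p = 0.00663) and library totals gave 1.06, both outside that interval. Without the few-gene libraries, Irf8 was at −0.27 in LPS against PBS (edgeR adjusted p = 0.406). In ALY688+LPS against ALY688 it was then at −0.545 (edgeR adjusted p = 0.00243). Per 1000 counts of B cell markers Irf8 had 104 to 609 counts in ALY688+LPS mice and 337 to 575 in LPS mice, against 56.9 to 102.3 in ALY688 mice and 48.8 to 95.9 in PBS mice, ranges that did not overlap across LPS. The B cell sum alone separated the groups in each comparison, at 109 to 599 CPM against 749 to 1589 with ALY688 and 89.9 to 237 against 557 to 1814 without it. The share of all genes that separate per B cell or monocyte count was not taken, so these ratios are not read as particular to Irf8. Per 1000 counts of monocyte markers Irf8 went the other way, with 38.1 to 65.9 counts in ALY688+LPS mice against 78.5 to 193 in ALY688 mice. That ratio overlapped between LPS mice, at 41.1 to 76.6 (median 59.6), and PBS mice, at 27.1 to 253 (median 80.7). Of 8 monocyte markers, 4 rose (Nr4a1, Csf1r, Ace, Ly6c2) and 1 fell in each comparison, Cx3cr1 with ALY688 and F13a1 without it. Of 6 conventional dendritic cell markers, 3 fell and 1 (Itgax) rose in each, with Cd209a and Clec9a falling in both. The part of these cells in the result for Irf8 was not tested.

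Ratios of related members within a library were compared with exact two-sided permutation tests over mice, 12 tests in all, with Benjamini-Hochberg adjustment over the 12. They need no scaling between libraries. How many other gene pairs separate the groups was not counted. The ratio of Irf7 to Irf3 counts, inducible against constitutive sensor-driven factor, was 29.6 to 292 (median 99.04) in ALY688+LPS mice and 17.9, 51.9, 67.3 and 168 in LPS mice, against 2.61 to 17.8 (median 5.54) in ALY688 mice and 3.03 to 37.5 (median 6.92) in PBS mice. The groups with and without LPS did not overlap where ALY688 was given. The difference of mean log2 ratios was 4.06 in ALY688+LPS against ALY688 (adjusted exact permutation p = 0.00123) and 2.48 in LPS against PBS (adjusted exact permutation p = 0.0269). The difference without ALY688 missed the threshold without LPS mouse 2 (2.52, adjusted p = 0.0655), mouse 7 (1.957, adjusted p = 0.0873) or mouse 8 (2.40, adjusted p = 0.0873), by the same exact permutation test. Leaving out an LPS mouse also raises the smallest p that this test can give. The few-gene libraries held the highest Irf7 to Irf3 ratios of their groups. Without them the differences were 3.65 in ALY688+LPS against ALY688 and 3.18 in LPS against PBS (adjusted exact permutation p = 0.012 and 0.0229).

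The ratio of Irf4 to Irf8, which compete for partners in B cells and myeloid cells, was 0.0766 to 0.234 (median 0.113) in ALY688+LPS mice and 0.0452, 0.063, 0.0876 and 0.1001 in LPS mice. It was 0.203 to 0.404 (median 0.314) in ALY688 mice and 0.220 to 0.385 (median 0.318) in PBS mice. Every LPS mouse lay below every PBS mouse, and ALY688+LPS mouse 4 alone reached into the ALY688 range. The mean log2 ratio differed by −1.44 in ALY688+LPS against ALY688 (adjusted exact permutation p = 0.00185) and by −2.12 in LPS against PBS (adjusted exact permutation p = 0.00839).

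The ratio of Irf1 to Irf2, activator to repressor, was 1.62, 1.69, 1.74 and 2.07 in LPS mice against 1.12 to 1.47 (median 1.37) in PBS mice. These groups did not overlap, and the mean log2 ratio was 0.45 higher with LPS (adjusted exact permutation p = 0.00839). The unadjusted exact permutation p of 0.0028 is the smallest that 4 against 9 mice can give. Irf4 to Irf8 had the same p in LPS against PBS, so it does not grade these differences. It was 1.07 to 2.11 (median 1.35) in ALY688+LPS mice against 0.925 to 1.64 (median 1.33) in ALY688 mice, a difference of 0.22 that missed the threshold (adjusted exact permutation p = 0.241).

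**Figure D5:**
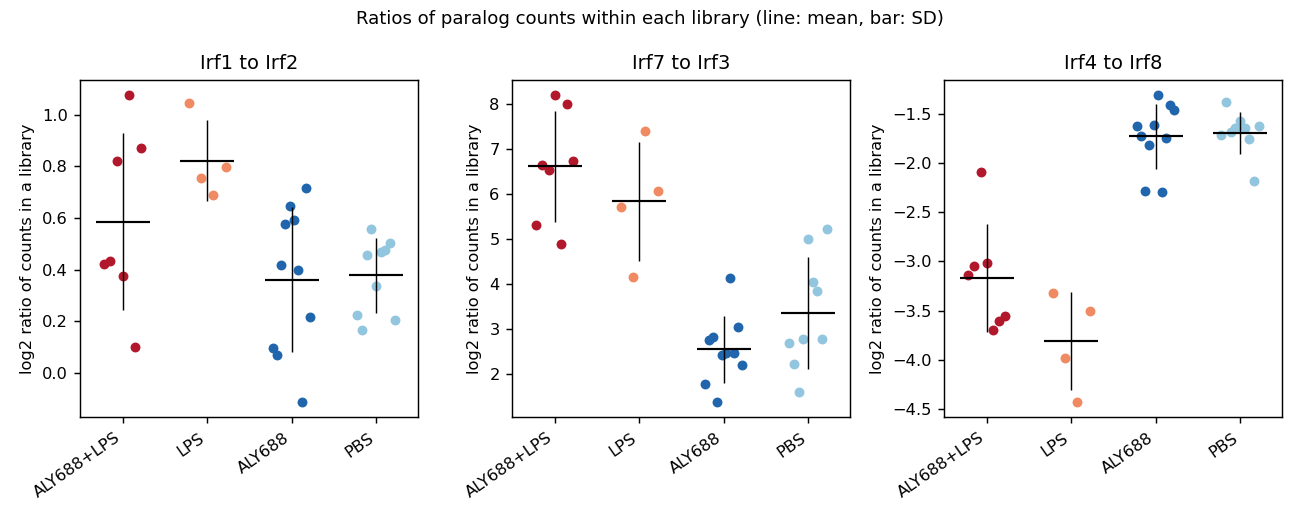
Log2 ratio of counts of Irf1 to Irf2, Irf7 to Irf3 and Irf4 to Irf8 within each library, by group (horizontal line, mean; vertical bar, SD). The 4 LPS mice lie apart from the 9 PBS mice for Irf1 to Irf2 (above) and Irf4 to Irf8 (below), and the ALY688+LPS mice lie above all ALY688 mice for Irf7 to Irf3.

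ALY688 did not change any of the 8 members past the threshold, with or without LPS. In ALY688 against PBS, 0 of 8 passed in edgeR, as did 0 of all 11708 genes (0%), and 1250 genes (10.7%) had an unadjusted p below 0.05; limma-voom and DESeq2 also called 0 genes. Irf7 was the only member among those 1250, at 85.0 to 334 CPM in ALY688 mice against 136 to 706 in PBS mice. Its log2 fold change was −0.87 ± 0.34 (unadjusted p = 0.0186, edgeR adjusted p = 0.442), and 9 of 10 ALY688 mice lay below the PBS median of 219. Without the few-gene libraries it was −0.30 (adjusted p = 0.987). The other 7 members lay between −0.09 (Irf9) and 0.26 (Irf8), with adjusted p of at least 0.48. The narrowest 95% interval, that of Irf2, ran from −0.21 to 0.13, and the intervals of Irf4 and Irf8 ran from −0.08 to 0.57 and from −0.06 to 0.58.

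In ALY688+LPS against LPS, 0 of 8 passed and 0 of all 12741 genes (0%) in edgeR, DESeq2 or limma-voom, with 463 (3.63%) at an unadjusted edgeR p below 0.05 and no member among them. Log2 fold changes lay between −0.35 ± 0.24 (Irf8) and 0.59 ± 0.65 (Irf7), with adjusted p of at least 0.913. With 4 LPS mice these intervals were wide: from −0.81 to 1.99 for Irf7, from −0.56 to 1.15 for Irf4 and from −0.88 to 0.17 for Irf8, so that a change of 2-fold in Irf7 or Irf4 lay inside them. None of the 6 ratio comparisons for ALY688 passed. The nearest was Irf4 to Irf8 in ALY688+LPS against LPS, 0.64 higher on the log2 scale (exact permutation p = 0.0788, adjusted 0.158).

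Whether the response to LPS differed with ALY688 was tested as the interaction of both treatments over all 30 mice. No member passed and no gene of 13476 (0%) passed in edgeR, with 1217 (9.03%) at an unadjusted p below 0.05; DESeq2 called 4 genes and limma-voom 0, none a member. Irf7 had an interaction of 1.44 ± 0.69 (unadjusted p = 0.0441, edgeR adjusted p = 0.506) and Irf8 of −0.61 ± 0.29 (unadjusted p = 0.0405, edgeR adjusted p = 0.506). Without the few-gene libraries these were 0.15 for Irf7 and −0.33 for Irf8, and with library totals 0.090 for Irf7 and −1.57 for Irf8. With the globin covariate they were −0.27 for Irf7 and −0.063 for Irf8. The calls of Irf8 and Irf3 in mice with ALY688 and not without it are therefore not shown to differ between the settings; for Irf3 the interaction was −0.28 ± 0.24 (edgeR adjusted p = 0.617).

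The genes that the family works with or acts on were counted in lists chosen with earlier results of these data known. Their counts stand beside 53% of all tested genes called in ALY688+LPS against ALY688 (26.4% higher, 26.6% lower) and 38.7% in LPS against PBS (20.9% higher, 17.9% lower), and nothing is read as particular to a list. Of 28 type I interferon-stimulated genes, 25 rose and 0 fell in ALY688+LPS against ALY688, with a median log2 fold change of 2.28, and 23 rose and 0 fell in LPS against PBS, with a median of 1.71. Oasl2, an antiviral protein of the oligoadenylate synthetase family, averaged 375 ± 118 CPM in ALY688+LPS mice and 40.9 ± 12.6 in ALY688 mice (SD, n = 7 and 10; log2 fold change 3.20 ± 0.23). Bst2 (tetherin), which holds budding viruses at the cell surface, averaged 99.8 ± 36.6 CPM in LPS mice and 15.1 ± 2.65 in PBS mice (n = 4 and 9; 2.74 ± 0.21). Zbp1, a sensor of Z-form nucleic acids, rose in both comparisons, by 2.14 ± 0.18 with ALY688 and 1.95 ± 0.23 without it. In ALY688 against PBS, 0 of 27 of these genes passed (median −0.37), and in ALY688+LPS against LPS 0 of 28 passed (median 0.42).

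Of 22 tested targets of interferon-gamma and IRF1, 13 rose and 1 fell in ALY688+LPS against ALY688 (median 0.51), and 8 rose and 1 fell in LPS against PBS (median 0.40). Nos2, the inducible nitric oxide synthase, averaged 20.3 ± 9.34 CPM in ALY688+LPS mice and 19.9 ± 10.8 in LPS mice, and rose in both comparisons; in the mice without LPS it stood at or near 0, so no fold is given. Gbp2, a guanylate-binding protein, averaged 299 ± 259 CPM in ALY688+LPS mice and 207 ± 236 in LPS mice, against 12.9 ± 2.31 in ALY688 mice and 14.9 ± 4.03 in PBS mice, and rose in both. Ciita, the activator of MHC class II genes that B cells and dendritic cells express, was the 1 that fell, to 12.8 ± 10.7 CPM in ALY688+LPS mice against 74.6 ± 15.6 in ALY688 mice, and to 9.95 ± 5.13 in LPS mice against 59.7 ± 23.3 in PBS mice.

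Of 12 interferon receptor, Janus kinase and STAT genes, 9 rose and 0 fell in ALY688+LPS against ALY688 (median 0.88), and 8 rose and 0 fell in LPS against PBS (median 0.89). Ifnlr1, the receptor chain for type III interferon, averaged 18.02 ± 6.08 CPM in ALY688+LPS mice and 1.53 ± 0.653 in ALY688 mice (log2 fold change 3.55 ± 0.26), and 17.99 ± 11.02 in LPS mice and 1.13 ± 0.753 in PBS mice (4.04 ± 0.41). Stat3 rose by 1.19 ± 0.08 with ALY688 and by 1.21 ± 0.18 without it. Of 11 interferon genes, Ifnb1, Ifna1, Ifna2, Ifna5, Ifna6, Ifnl2 and Ifnl3 had 0 counts in all 30 libraries, which allows up to 3 counts in each. Ifng alone passed the filter on low counts; it averaged 0.945 ± 0.542 CPM in ALY688+LPS mice and 0.631 ± 0.315 in ALY688 mice, and 0.944 ± 0.564 in LPS mice and 0.546 ± 0.363 in PBS mice (edgeR adjusted p = 0.142 and 0.219).

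Of 25 kinases, adaptors and sensors that act upstream of IRF3, IRF5 and IRF7, 14 rose and 3 fell in ALY688+LPS against ALY688 (median 0.50), and 12 rose and 1 fell in LPS against PBS (median 0.43). Myd88, the adaptor shared by most Toll-like receptors, averaged 107 ± 13.3 CPM in ALY688+LPS mice and 26.3 ± 2.82 in ALY688 mice, and 108 ± 24.8 in LPS mice and 29.5 ± 7.33 in PBS mice. Tlr4, the receptor that senses LPS, rose by 2.36 ± 0.13 with ALY688 and 2.11 ± 0.25 without it. Ikbke, a kinase of IRF3 and IRF7, averaged 170 ± 62.3 CPM in LPS mice and 24.4 ± 7.60 in PBS mice (log2 fold change 2.79 ± 0.26). Tmem173 (STING), an adaptor for cytosolic DNA sensing, fell in both comparisons, and Ikbkb and Tlr9 fell in ALY688+LPS against ALY688; these 3 are named after their values were seen.

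Of the DNA-binding partners and co-regulators, 12 of 23 tested rose and 6 fell in ALY688+LPS against ALY688 (median 0.33), and 12 of 24 rose and 3 fell in LPS against PBS (median 0.59). Spi1 (PU.1), the myeloid and B cell partner of IRF4 and IRF8, averaged 323 ± 58.3 CPM in ALY688+LPS mice and 66.2 ± 9.09 in ALY688 mice, and 317 ± 53.1 in LPS mice and 79.9 ± 19.4 in PBS mice. Cebpb, a factor of myeloid cells under inflammatory stimulation, rose by 2.97 ± 0.17 with ALY688 and 2.71 ± 0.22 without it. The 3 that fell in LPS against PBS were Spib, the relative of PU.1 in B cells and plasmacytoid dendritic cells, with Ikzf3 and Tcf4, named after their values were seen. Spib averaged 27.5 ± 12.3 CPM in ALY688+LPS mice and 126 ± 33.5 in ALY688 mice, and 26.5 ± 13.1 in LPS mice and 94.6 ± 36.2 in PBS mice.

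The genes whose levels varied most like each member among mice of the same group were named by the Pearson correlation (r) of log2 CPM after group means were subtracted, over 30 libraries and 13475 genes. The libraries share their depth and globin share across all genes, so these values are a description. Irf7 varied most like Isg15, a ubiquitin-like interferon-stimulated gene (r = 0.95, rho = 0.94), AW011738 (r = 0.95) and Pttg1 (r = 0.94). Irf9 varied most like Samhd1, a phosphohydrolase that limits viral replication (r = 0.88), the RNA sensor Ddx58 (r = 0.84) and Trim30a (r = 0.82). Irf4 varied most like the MHC class II chaperone gene H2-DMb1 (r = 0.90), Irf8 like Txndc5 (r = 0.91), Irf3 like Trabd (r = 0.91) and Irf5 like the lysosomal protease Ctss (r = 0.82). Irf2 and Irf1 had lower leading values, 0.76 with Arnt and 0.72 with Arhgap25. Among the members, Irf5 and Irf8 varied together (r = 0.77, rho = 0.71), and Irf7 and Irf8 in opposite directions (r = −0.81, rho = −0.80). By the same measure, the globin share of the library correlated with Irf7 at r = 0.83, with Irf8 at −0.65 and with Irf5 at −0.55. Its part in these pairs was not tested.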

How the data were processed

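The 30 libraries of mouse blood came as tables of read counts per gene, whole numbers without normalization as deposited by the authors. The submitters' processing notes name the aligner HISAT2 2.0.5 and the counter featureCounts 1.5.0-p3; which build, annotation and strand setting they used is not given in the sources used here. Of 54532 IDs, 54495 matched GENCODE M21 (GRCm38), the source of symbols, coordinates and exon lengths.

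Low genes were dropped with filterByExpr, and TMM factors scaled the rest. Each comparison was fitted on its own groups (the interaction on all 4) with edgeR 4.0.16 in R 4.3.3 (robust quasi-likelihood, two-sided), with Benjamini-Hochberg adjustment over all genes and a threshold of 0.05. Values are means ± SD between mice or log2 fold changes ± SE. Ratios used counts plus 0.5 and exact permutation tests (scipy 1.17.1). The alternatives were limma 3.58.1 (voom), DESeq2 1.42.0, other scaling, no filter, a globin covariate, a block on mouse number, and left-out libraries. The fits were tested on simulated data. Precision is set by the number of mice and the totals, 9554964 to 17338214 counts; a count of 0 allows up to 3 counts, for counting error only. No 2 libraries of a group agreed within sampling noise (chi-square per degree of freedom at least 8.02).

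The members, lists and tests were chosen with earlier results of these data known. The genes named are the 8 members, up to 4 genes per list and comparison with the smallest p, and the 3 genes most like each member; exceptions are marked. Some genes are not reported here.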

Additional observations from a re-analysis of the deposited data

Results flagged for a closer look

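In 44 groups of levels or ratios of 4 to 10 mice, 5 values stood far from the nearest other mouse of their group, by Dixon's criterion at the 95% level; chance flags about 1 in 20 groups. Mouse 4 of the ALY688+LPS group had 3 of them. Its Irf4 level of 14.6 CPM was high against 3.81 to 6.30 in the 6 others, its Irf9 level of 60.6 CPM was low against 71.4 to 76.3, and its ratio of Irf4 to Irf8 of 0.234 was high for the group. This mouse also had the highest sum of B cell markers among the mice given LPS, 599 CPM. Irf7 in mouse 7 of the ALY688 group was high at 334 CPM, in the 1 library of that group with fewer than 16000 detected genes and with the group's highest globin share, 60.8%. The ratio of Irf4 to Irf8 in PBS mouse 8 was low at 0.220.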

How the results depend on the processing

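The calls of Irf7 in both comparisons across LPS, and of Irf4 and Irf9 in ALY688+LPS against ALY688, held under every alternative run. The other calls, that of Irf4 in LPS against PBS among them, ended under at least 1. With library totals in place of TMM, the median over all genes went to 1.04 (LPS against PBS), 0.50 (ALY688 against PBS), −0.49 (ALY688+LPS against LPS), 0.03 (ALY688+LPS against ALY688) and −0.998 (interaction), and member values moved with it. In ALY688+LPS against ALY688 it left 3 members and 3049 genes called, against 6 and 6504, with Irf1 at 0.54 (adjusted p = 0.27), Irf3 at −0.31 (adjusted p = 0.598) and Irf8 at −0.51 (adjusted p = 0.317) no longer called. In LPS against PBS it ended the call of Irf4 (−0.97, adjusted p = 0.192), called Irf5 (1.43, adjusted p = 0.0118), and turned Irf2 (0.98, adjusted p = 0.045), Irf3 (0.83) and Irf8 (1.06) upward; Irf1, Irf7 and Irf9 stayed called at 1.42, 3.61 and 1.46. It also turned uncalled values: in ALY688 against PBS Irf1 (0.43), Irf2 (0.45) and Irf9 (0.36); in ALY688+LPS against LPS Irf2 (−0.31), Irf4 (−0.28), Irf7 (−0.036) and Irf9 (−0.22); and in the interaction Irf1 (−0.87), Irf2 (−0.76), Irf4 (−0.96) and Irf9 (−0.59).

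Members called in LPS against PBS fell to 2 of the 4, Irf7 and Irf4, without the few-gene libraries and with the replicate block. The call of Irf1 ended with no filter on low counts (0.53, adjusted p = 0.0594), without the few-gene libraries (0.32, adjusted p = 0.0566), with the globin covariate (0.49, adjusted p = 0.209) and with the replicate block (0.38, adjusted p = 0.179). That of Irf9 also ended with the covariate (0.70, adjusted p = 0.111) and the block (0.50, adjusted p = 0.08). DESeq2 called Irf5 (0.31, adjusted p = 0.0421), and the covariate called Irf3 (−0.98, adjusted p = 0.0456) and Irf8 (−1.51, adjusted p = 0.00663). Globin shares did not overlap between LPS and PBS mice, so the covariate values in that comparison are extrapolated. In the interaction, DESeq2 called 4 genes against 0. Other signs that turned belonged to uncalled values. Without the few-gene libraries these were Irf3 (−0.040), Irf5 (−0.0041) and the ratio of Irf4 to Irf8 (0.060) in ALY688 against PBS, Irf1 (0.044), Irf5 (0.014) and Irf7 (−0.17) in ALY688+LPS against LPS, and Irf5 (0.029) in the interaction. With the covariate they were Irf3 (−0.11), Irf4 (−0.036) and Irf5 (−0.012) in ALY688 against PBS; Irf1 (0.0058), Irf5 (0.10), Irf7 (−0.45) and Irf8 (0.028) in ALY688+LPS against LPS; Irf2 (0.073), Irf5 (−0.17) and Ifng (−0.086) in LPS against PBS; and Irf3 (0.079), Irf5 (0.14) and Irf7 (−0.27) in the interaction. With no filter they were Irf2 (0.097) and Irf8 (0.088) in LPS against PBS and Irf1 (−0.033) and Irf4 (−0.0050) in the interaction, and with limma-voom Irf1 there (−0.054). The cause was not tested.

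Leaving out 1 library at a time, members called ran from 2 to 4 in LPS against PBS (2 without LPS mouse 7 or 8) and from 6 to 7 in ALY688+LPS against ALY688, and genes called in the interaction from 0 to 1. The difference in Irf7 to Irf3 in LPS against PBS ran from 1.957 to 3.03. Ranges that crossed 0 were −0.0014 to 0.18 (Irf3), −0.011 to 0.068 (Irf5), −0.055 to 0.037 (Irf1 to Irf2) and −0.10 to 0.023 (Irf4 to Irf8) in ALY688 against PBS; −0.14 to 0.010 (Irf1), −0.015 to 0.51 (Irf4) and −0.15 to 0.055 (Irf5) in ALY688+LPS against LPS; −0.078 to 0.072 (Irf2) and −0.31 to 0.18 (Irf8) in LPS against PBS; and −0.075 to 0.069 (Irf1), −0.27 to 0.26 (Irf4) and −0.19 to 0.016 (Irf5) in the interaction. Mouse numbers recur between groups, and the sample titles do not say whether a number marks the same animal. Same-numbered mice correlated above 0.1 in their deviations in 2 of 9, 2 of 7, 1 of 3 and 2 of 4 pairs (ALY688 against PBS, ALY688+LPS against ALY688, ALY688+LPS against LPS, LPS against PBS). So few pairs cannot settle whether the samples were paired, and the main fits did not use the numbers. With the replicate block Irf3 also missed the threshold in ALY688+LPS against ALY688 (−0.43, adjusted p = 0.0592).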

Other observations

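Marker counts in this section stand beside all tested genes, of which 26.4% rose and 26.6% fell in ALY688+LPS against ALY688. In LPS against PBS 20.9% rose and 17.9% fell. No count is read as particular to a cell type. Of 4 tested markers of plasma cells, which depend on IRF4, 1 rose and 1 fell in ALY688+LPS against ALY688, and 2 rose and 1 fell in LPS against PBS. Xbp1, a transcription factor of secretory cells, changed by 1.70 ± 0.11 on the log2 scale with ALY688 and 1.62 ± 0.18 without it (SE, edgeR adjusted p = 2.69e-10 and 6.21e-06). Mzb1, a chaperone of antibody secretion, fell in both settings. Jchain, which joins antibody units, stood at 1.06 ± 0.52 with ALY688 (edgeR adjusted p = 0.0952) and rose by 2.02 ± 0.36 without it (edgeR adjusted p = 0.000346).

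Of 5 tested markers of plasmacytoid dendritic cells, which hold IRF7 before any stimulus, Bst2 and Runx2 rose and Tcf4 fell in both settings, and Ccr9 fell in ALY688+LPS against ALY688 (−1.45 ± 0.42, edgeR adjusted p = 0.00775). That made 2 higher and 2 lower there (median −1.11), and 2 higher and 1 lower in LPS against PBS (median 0.73). Bst2 is also an interferon-stimulated gene. Siglech, a surface receptor that defines these cells, did not pass in either, at −1.50 ± 0.84 in ALY688+LPS against ALY688 and 0.73 ± 0.62 in LPS against PBS (SE). Of 7 NK cell markers, 2 rose with ALY688 and 4 without it, and none fell; all 7 were above 0 in LPS against PBS (median 0.90) and 5 in ALY688+LPS against ALY688 (median 0.24). Gzma and Prf1, which encode cytotoxic granule proteins, rose in both settings. No marker of these 3 lists passed in the interaction of ALY688 and LPS (lowest edgeR adjusted p = 0.506). The part of cell numbers in these values was not tested.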
